A study of Mus musculus with 32 samples.

Results

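The interleukin-1 and IL-36 cytokine family was examined in lupus kidneys through 10 genes chosen by symbol, of which 9 were matched to a named probe set among the 15780 genes tested. These were the ligands Il1f6 (also called Il36a), Il1f9 (Il36g), Il1a, Il1b, Il18 and Il33, the antagonist Il1rn, the receptor Il1r1 and the decoy receptor Il1r2. Il1rl1, the receptor of IL-33, was not matched and is not analysed here. Expression was measured on Affymetrix arrays in 32 kidneys, 26 of NZB/W mice and 6 of NZM2410 mice, strains that develop lupus nephritis spontaneously. Untreated NZB/W mice without proteinuria, aged 30 weeks, gave 7 kidneys (30 wk group). Triple therapy, given to NZB/W mice, joined cyclophosphamide (CTX) to CTLA4Ig, a fusion protein that blocks the costimulation of T cells through CD28, and to an antibody against the CD40 ligand CD154, and was followed by sampling of 8 kidneys at an early and 6 at a late stage of remission. The remaining 5 NZB/W kidneys were taken in late remission after CTLA4Ig with Ad-TACI-Ig, an adenovirus encoding a soluble receptor for BAFF and APRIL, cytokines on which B cells and plasma cells depend (late TACI-Ig group). The 6 NZM2410 kidneys were taken in remission after Ad-BAFF-R-Ig, an adenovirus encoding a soluble receptor for BAFF. The labels give no age for the treated mice. Whole kidneys were used, harvested after perfusion with saline, so each value mixes tubules, glomeruli, vessels and infiltrating cells. Nephritic and young kidneys are not analysed here, so the comparisons are among remission kidneys and between these and the 30 wk kidneys.

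IL-1α and IL-1β signal through IL-1R1, which recruits the accessory chain IL-1RAP and then MyD88 and the IRAK kinases. IL-1Ra, the product of Il1rn, occupies IL-1R1 without signalling, and IL-1R2 binds IL-1 without signalling. The IL-36 cytokines use a related receptor encoded by Il1rl2 and are made mainly by epithelia, including kidney tubules in mice with lupus. IL-1β and IL-18 are made as precursors that caspase-1 cleaves within inflammasomes, whereas IL-33 is stored in nuclei and is released on cell damage.

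Array medians ranged from 7.02 to 7.16 on the log2 scale. Array SDs over genes were 1.90 to 2.03 in NZB/W kidneys and 2.11 to 2.17 in NZM2410 kidneys, a wider spread in every NZM2410 array. The number of arrays, 1 kidney sample each, limits the precision, and the p-values measure only the spread between these kidneys. The 8 measured kidney tubule and podocyte markers had mean values of 11.19 to 11.96 per kidney. The 5 adrenal cortex markers averaged 5.42 to 10.03 in 30 wk kidneys and 5.12 to 9.53 in early remission, and 5.31 to 5.67 in late TACI-Ig and NZM2410 kidneys. In late remission after triple therapy no gene had a mean more than 0.026 away from that of the 30 wk and late TACI-Ig kidneys pooled (12 kidneys), where the spread between kidneys gave a median standard error of 0.0748. For the 9 family genes the largest such distance was 0.011. Its difference from 30 wk thus followed the late TACI-Ig difference at a smaller size.

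Levels were given as log2 values from RMA, in which each gene has its own probe affinity, so levels were compared between groups and not between genes. By mean level over all kidneys, 6 of the 9 genes were above the low-level class, the 5260 genes of lowest mean (log2 6.07 or less), and Il1f9, Il1rn and Il1r2 were in it. Il1f9 and Il1r2 did not exceed its upper bound in any kidney. Of the 32 kidneys, Il1f6 exceeded that bound in 26, Il1a in 25 and Il1rn in 6. Il1b exceeded it in 31, and Il1r1, Il18 and Il33 in all 32. Il1b and Il33 varied more within groups than most genes, with within-group SDs of 0.54 and 0.52 at percentiles 98.7 and 98.6 of all genes, against a median SD of 0.14.

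**Figure D1:**
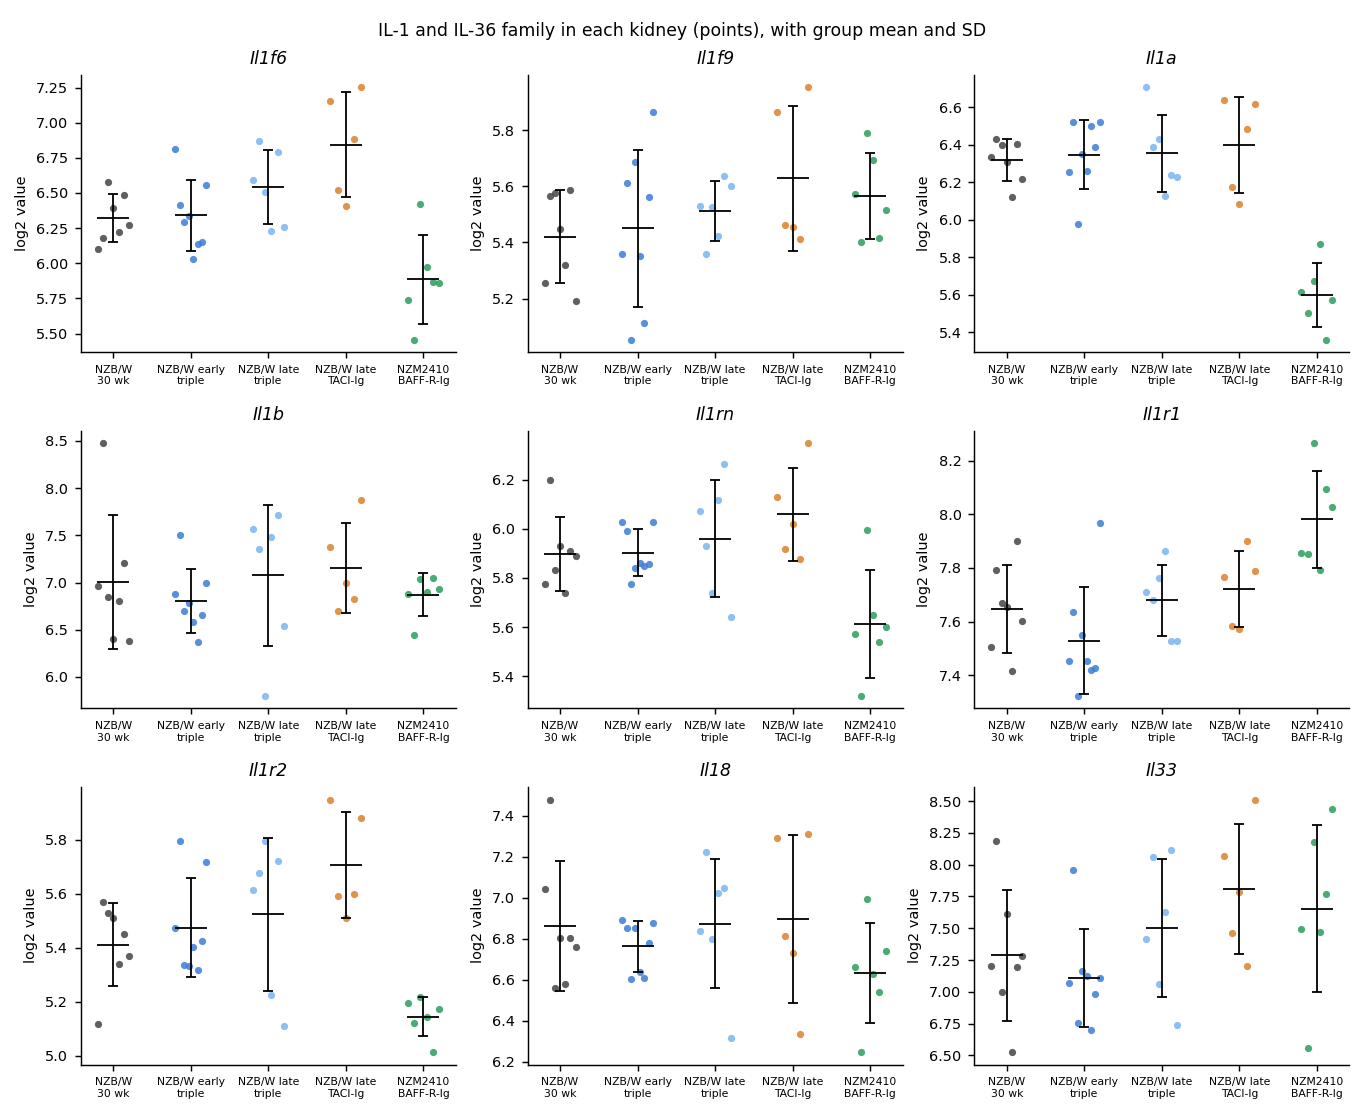
Log2 value of each family gene (vertical axes, 1 panel per gene, with separate scales) in each kidney (points) by group (horizontal axes), with the group mean and SD (bars). The 6 NZM2410 kidneys lie below all 26 NZB/W kidneys for Il1a, and single kidneys such as 30 wk replicate 2 stand high for Il1b at 8.47.

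Il1f6 encodes IL-36α, an epithelial cytokine that acts on neighbouring epithelial and dendritic cells. It was lowest in NZM2410 kidneys and highest in late TACI-Ig kidneys. Its values in the 5 late TACI-Ig kidneys were 7.16, 6.52, 6.41, 6.88 and 7.25 (replicates 1 to 5). In NZM2410 kidneys the lowest, median and highest values were 5.46, 5.86 and 6.42. The ranges overlapped only between the highest NZM2410 kidney (replicate 3) and the lowest late TACI-Ig kidney (replicate 3). The mean was 5.89 ± 0.32 (SD, n = 6) in NZM2410 and 6.84 ± 0.37 (SD, n = 5) in late TACI-Ig kidneys, a log2 difference of -0.96 (SE 0.18, limma adjusted p = 0.000516). Il1f9, which encodes the related cytokine IL-36γ, had group means between 5.42 and 5.63 in all 5 groups, and its groups overlapped.

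Il1a encodes IL-1α, which is active without cleavage and is kept inside cells until damage. It had group means of 6.32 to 6.40 in the 4 NZB/W groups and of 5.60 in NZM2410 kidneys. The lowest, median and highest NZM2410 values were 5.36, 5.59 and 5.87, whereas the 5 late TACI-Ig kidneys had 6.64, 6.17, 6.09, 6.48 and 6.62. The groups did not overlap, and the lowest NZB/W kidney of any group (early remission, 5.98) was also above the highest NZM2410 kidney. The difference from late TACI-Ig kidneys was -0.80 (SE 0.12, limma adjusted p = 7.78e-05).

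Il1b encodes IL-1β, the main secreted IL-1 of monocytes and macrophages. In the 30 wk group its lowest, median and highest values were 6.38, 6.84 and 8.47, and the highest kidney, replicate 2, was well apart from the next at 7.21. In late remission after triple therapy it ranged from 5.80 to 7.71 with a median of 7.42, the widest range of a treated group for this gene. Group means lay between 6.81 and 7.15, differences smaller than the SDs of 0.71 at 30 wk (n = 7) and 0.75 in late remission after triple therapy (n = 6). Il18, whose product induces interferon-γ in T and NK cells, had group means between 6.63 and 6.90, and its ranges overlapped in every comparison. Il33 encodes an alarmin of endothelial, stromal and epithelial nuclei and had group means of 7.29 at 30 wk, 7.11 in early remission, 7.50 in late remission after triple therapy, 7.81 in late TACI-Ig and 7.65 in NZM2410 kidneys. Within each group its SD was between 0.38 and 0.66, so neighbouring groups in this order were not separated.

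Il1rn, the antagonist, had group means of 5.90 to 6.06 in NZB/W kidneys. In NZM2410 kidneys its lowest, median and highest values were 5.32, 5.59 and 5.99, against 6.13, 5.92, 6.02, 5.88 and 6.35 in late TACI-Ig kidneys. All NZM2410 kidneys except replicate 3 were below every late TACI-Ig kidney. The difference was -0.45 (SE 0.11, limma adjusted p = 0.00448). Il1r2, the decoy receptor known mainly from neutrophils and monocytes, ranged from 5.01 to 5.22 with a median of 5.16 in NZM2410 kidneys and was 5.95, 5.59, 5.51, 5.60 and 5.88 in late TACI-Ig kidneys. These groups did not overlap. The difference was -0.56 (SE 0.086, limma adjusted p = 0.000109). Il1r1, the signalling receptor, was the one family gene called higher in NZM2410 kidneys. Its lowest, median and highest values there were 7.79, 7.94 and 8.26, against 7.77, 7.58, 7.57, 7.90 and 7.79 in late TACI-Ig kidneys. The groups overlapped, and the difference was 0.26 (SE 0.096, limma adjusted p = 0.0325). It was not called after a further quantile normalization (difference 0.17, limma adjusted p = 0.171), after median centring (0.19, adjusted p = 0.0883) or with all arrays scaled to the same SD (0.22, adjusted p = 0.0617).

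Between NZM2410 and late TACI-Ig kidneys, 5 of 9 family genes were thus called at a limma adjusted p under 0.05, 4 lower and 1 higher, where 59.5% of all genes were called, 30.9% lower and 28.6% higher. Groups did not overlap for 2 of 9 genes and for 38.5% of all genes. The mean was higher for 1 of 9 and for 50.4% of all genes, and the median difference was -0.28 over the 9 genes and 0.00 over all genes. The stricter filter of the study (adjusted p no larger than 0.001, and a fold no smaller than 1.4 up or no larger than 0.7) passed 3 of 9, namely Il1f6, Il1a and Il1r2, where it passed 20% of all genes. The SAM-type test, which compares a moderated difference with permutations of the samples, called 7 of 9 and 61.1% of all genes. Low-level genes as a class were lower in NZM2410 kidneys. The 5260 genes of the low-level class had a median difference of -0.32 and 58.4% of them were called lower, against a median of 0.12 and 17.1% for the other 10520 genes. Il1rn and Il1r2 were in that class, and most NZM2410 values of Il1f6 and Il1a were below its upper bound. Strain, treatment and stage of remission differed together between these groups and cannot be told apart. Marker lists moved as well. The 8 measured neutrophil markers averaged 5.37 to 5.69 per NZM2410 kidney and 5.94 to 6.43 per late TACI-Ig kidney, with 2 of the 8 above the low-level class. The 7 mast cell markers, 3 of them above that class, averaged 5.14 to 5.28 and 5.46 to 5.74. The 8 kidney tubule and podocyte markers, all above it, averaged 11.87 to 11.96 and 11.19 to 11.69. Neither of these lists overlapped. The 2 measured B cell markers, 1 of them above the low-level class, had group means of 5.11 and 6.30. The 4 measured adipose markers, 3 of them above it, had 6.61 and 7.96. Kidneys overlapped for both. The 9 measured macrophage and dendritic cell markers averaged 7.55 to 9.33 per NZM2410 kidney and 7.56 to 9.36 per late TACI-Ig kidney. The part of these in the family differences was not tested, and in whole-kidney RNA fewer cells of a type and less RNA per cell cannot be told apart.

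**Figure D2:**
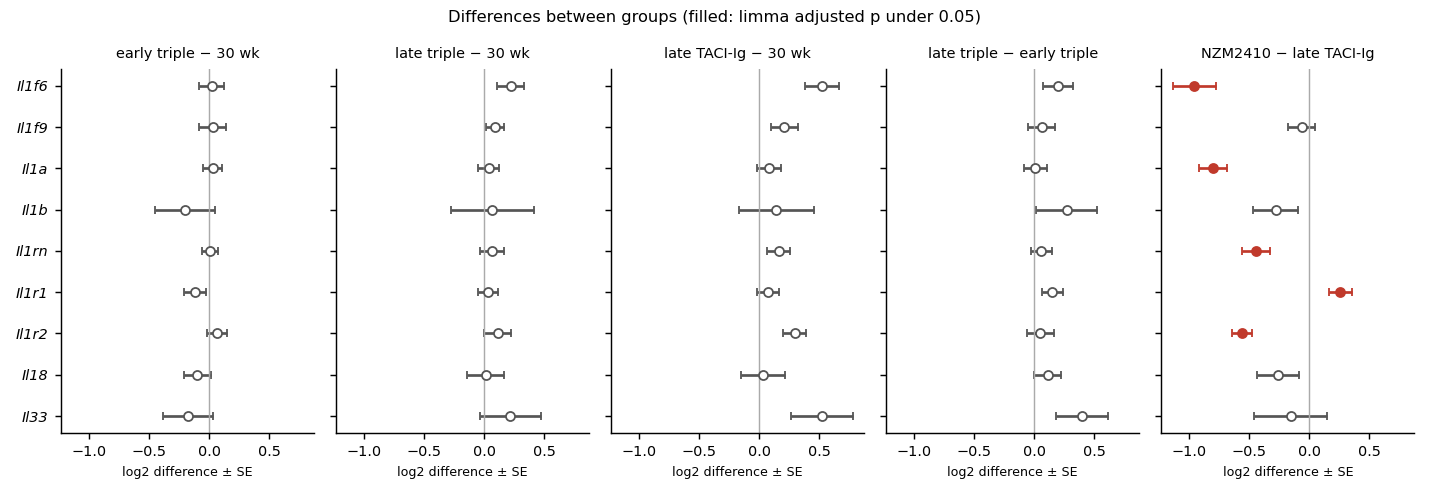
Log2 difference between group means (horizontal axes, ± SE from limma) for each family gene (rows) in 5 comparisons (panels), filled red where the adjusted p was under 0.05. Filled points appear only for NZM2410 against late TACI-Ig kidneys, for Il1f6, Il1a, Il1rn, Il1r1 and Il1r2. The comparisons share the kidneys of all NZB/W groups.

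Against 30 wk kidneys, Il1f6, Il1r2 and Il33 had the largest differences in late TACI-Ig kidneys, and none passed the limma test. For Il1f6, the 30 wk kidneys had a lowest, median and highest value of 6.10, 6.27 and 6.58, so late TACI-Ig replicates 1, 4 and 5 were above every 30 wk kidney and replicates 2 and 3 were within their range. The difference was 0.52 (SE 0.14), with a limma p of 0.00232 and an adjusted p of 0.203. Without late TACI-Ig replicate 2 it was 0.61 with an adjusted p of 0.0342, and over the fits that left out 1 kidney the adjusted p ran from 0.0342 to 0.479. For Il1r2, the 30 wk values ran from 5.12 through a median of 5.45 to 5.57, and only late TACI-Ig replicate 3 (5.51) was within that range. The difference was 0.29 (SE 0.096), with a limma p of 0.00845 and an adjusted p of 0.203. For Il33, 30 wk values of 6.53, 7.20 and 8.19 (lowest, median, highest) overlapped late TACI-Ig values of 8.07, 7.47, 7.79, 7.21 and 8.51. The Il33 difference was 0.52 (SE 0.26), with an adjusted p of 0.258, and it was 0.35 without late TACI-Ig replicate 5. The other 6 genes also had higher means in late TACI-Ig kidneys, by 0.03 to 0.21, so that 9 of 9 were higher where 58.7% of all genes were. The median difference was 0.16 over the 9 genes and 0.04 over all genes. The 9 genes were positively correlated across kidneys (below), so their directions are not separate observations.

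Limma called 0 of 9 family genes and 0% of all genes in that comparison, and 20.3% of all genes had an unadjusted p under 0.05, Il1f6 and Il1r2 among them. The SAM-type test, modelled on the method the study used, called 2 of 9, Il1f6 (q = 0.0354) and Il1r2 (q = 0.0456), both higher, where it called 3.59% of all genes higher and 6.7% in all. Without late TACI-Ig replicate 2, limma called 1309 genes. The adrenal markers averaged 8.71 ± 2.02 (SD, n = 7) at 30 wk and 5.50 ± 0.11 (SD, n = 5) in late TACI-Ig kidneys. Their part in the differences was not tested. With group means removed, the r of these 3 genes over 26 NZB/W kidneys with the adrenal markers was 0.09 for Il1f6, 0.10 for Il1r2 and 0.14 for Il33. Over the 9 family genes it ran from 0.07 (Il1rn) to 0.37 (Il1f9). Removing group means also removes the adrenal gap between the groups, so these r cannot bear on it.

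In early remission after triple therapy the family genes were close to their 30 wk levels. Differences ran from -0.20 (Il1b, SE 0.25) to 0.06 (Il1r2, SE 0.084), 5 of 9 were higher where 59.6% of all genes were, and limma called 0 of 9 and 0% of all genes, with 0 of 9 and 8.78% of all genes at an unadjusted p under 0.05. The SAM-type test also called 0 of 9, and 0.253% of all genes. Il1f6 showed a difference of 0.02 with an SE of 0.10. In late remission after triple therapy the differences from 30 wk were 0.01 to 0.22, 9 of 9 higher where 58.8% of all genes were, and limma called 0 of 9 and 0% of all genes, with 0 of 9 and 0.292% at an unadjusted p under 0.05, while the SAM-type test called 0 of 9 and 0% of all genes. Since the late triple therapy means matched those of the pooled 30 wk and late TACI-Ig kidneys, these directions were set by the late TACI-Ig differences and are not separate evidence.

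After triple therapy, all 9 family genes had a higher mean in late than in early remission, by 0.01 to 0.40, where 45.2% of all genes did. As the genes were correlated across kidneys, these directions are not separate observations. The late means were again those of the pooled 30 wk and late TACI-Ig kidneys, so this comparison cannot be told apart from one of early remission with those kidneys, and whether the match arose in the processing by the authors was not tested. Limma called 0 of 9 and 0.0697% of all genes, with 0 of 9 and 5.31% at an unadjusted p under 0.05, and the SAM-type test called 0 of 9 and 0.203%. Il33 differed most, with lowest, median and highest values of 6.74, 7.52 and 8.11 in late and 6.70, 7.09 and 7.96 in early remission. These ranges overlapped almost fully, and the difference was 0.40 (SE 0.22) with a limma adjusted p of 0.9998. Early remission replicate 2 (7.96) was well above the other 7 kidneys of its group, which reached 7.16.

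The levels of family genes were positively correlated across kidneys, and 17 of 36 pairs passed the test. The share of all gene pairs that would pass was not computed, so this count does not set the family apart from other genes. Most of the passing pairs held Il1f9, Il1r2 or Il1rn, genes of the low-level class. Of these, Il1f9 and Il1r2 did not exceed its upper bound in any kidney. The part of such low signals in the r values was not tested. Over 26 NZB/W kidneys, each value taken relative to its group mean, all 36 pairs had a positive r, from 0.26 to 0.82 with a median of 0.45, and the threshold was an adjusted p of 0.05 (two-sided permutation test within groups, Benjamini-Hochberg over the 36 pairs). After a further quantile normalization 9 of 36 passed. Il1b, Il1rn, Il18 and Il33 formed the tightest group, with r between 0.68 and 0.82 in all 6 of their pairs. The highest r was that of Il18 with Il33, 0.82 (Spearman rho 0.78, permutation p = 1e-05 for r, the smallest that the resamples can give, and 8e-05 for rho, adjusted p = 0.00036 for r). It was 0.75 without the 2 kidneys farthest from the Il18 median, and 0.84, 0.57 and 0.91 within the 30 wk, early remission and late triple therapy groups. Il1rn with Il33 followed at 0.82 (rho 0.81, permutation p = 2e-05 and 3e-05, adjusted p = 0.00036 for r). It was 0.76 without the 2 farthest kidneys and 0.92, 0.53 and 0.81 within the same groups. Il1b with its antagonist Il1rn had an r of 0.80 (rho 0.75, permutation p = 0.00012 and 0.00014, adjusted p = 0.00144 for r), 0.75 without the 2 farthest kidneys, and 0.65 to 0.85 within groups.

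A single kidney was highest for all 4 of these genes in the 30 wk and late TACI-Ig groups and not in the other groups. At 30 wk, replicate 2 was the highest kidney for each of Il1b (8.47), Il1rn (6.20), Il18 (7.48) and Il33 (8.19). In the late TACI-Ig group, replicate 5 was highest for each of the 4, at 7.87, 6.35, 7.31 and 8.51. In early remission, replicate 2 was highest for Il1b and Il33 and replicate 1 for Il1rn and Il18. In late remission after triple therapy, replicate 10 was highest for Il1b, Il1rn and Il33 and replicate 7 for Il18. In NZM2410 kidneys, replicate 3 was highest for Il1rn and Il18, replicate 5 for Il1b and replicate 6 for Il33. Without 30 wk replicate 2, the 6 pairs had r between 0.57 and 0.78 and 15 of 36 pairs passed. In the 6 NZM2410 kidneys, which were not part of that calculation, the 6 pairs had r between 0.70 and 0.95, and none passed after adjustment over 36 pairs (smallest adjusted p of the 6 pairs 0.237, exact permutation test). Their rho ran from 0.37 to 0.83. Without the 2 kidneys farthest from the median of the first gene, r ran from -0.08 (Il1rn with Il33) to 0.99 (Il1b with Il18). Some of these r thus rested on those kidneys. Among all 15779 other genes, whose median r with each of the 4 was 0.01 to 0.02, Il33 ranked 43 for r with Il18 and Il1rn ranked 81 for r with Il1b. Over all pairings of the 4, ranks ran from 32 (Il18 for r with Il33) to 408 (Il1b for r with Il18). The 4 genes were singled out by these same r values, so the ranks are not separate evidence.

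**Figure D3:**
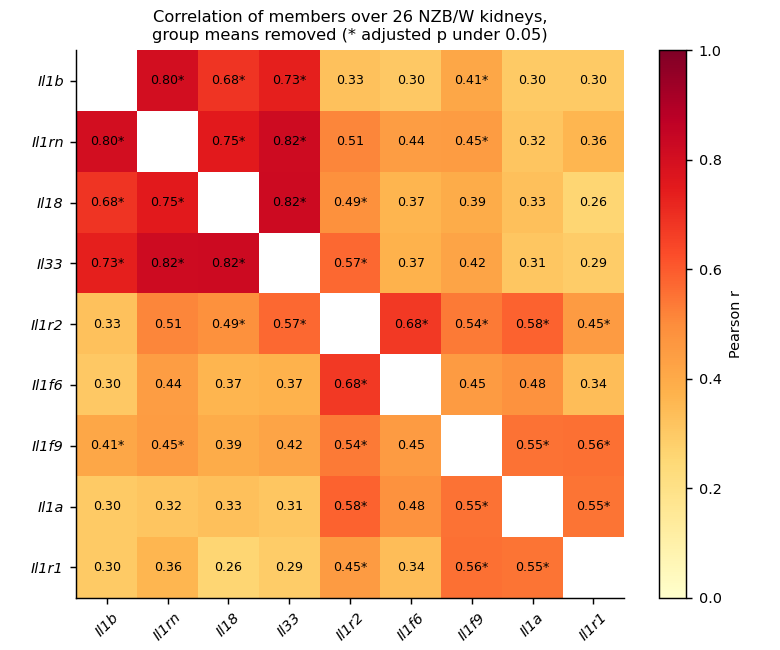
Pearson r between family genes (rows and columns, coloured by r) over 26 NZB/W kidneys after removal of group means, with stars where the permutation p adjusted over 36 pairs was under 0.05. All values are positive, from 0.26 to 0.82, and the block of Il1b, Il1rn, Il18 and Il33 holds the highest.

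Macrophage, T cell and B cell markers varied with these 4 genes. The mean of the 9 measured macrophage and dendritic cell markers, of which 8 were above the low-level class, had an r of 0.82 with Il1b, 0.77 with Il18, 0.74 with Il1rn and 0.73 with Il33 over the 26 kidneys, and 0.75, 0.70, 0.67 and 0.65 without 30 wk replicate 2. That kidney had the highest macrophage mean of its group, 9.65 in a range from 7.81. The 4 measured T cell markers, 2 of them above the low-level class, had r between 0.71 and 0.82 with the same 4 genes. Without 30 wk replicate 2 these were 0.59 to 0.78. The 2 measured B cell markers, 1 of them above that class, had r between 0.68 and 0.80, and between 0.53 and 0.73 without that kidney. The kidney markers had r between -0.70 and -0.57. The neutrophil markers had r between 0.37 and 0.39, and between 0.05 and 0.18 without 30 wk replicate 2, and the mast cell markers between -0.02 and 0.14. The 3 genes most like Il1b were Fpr2 (r = 0.92), a formyl peptide receptor of phagocytes, Clec4n (0.90), a C-type lectin, and Lair1 (0.90), an inhibitory receptor of leukocytes. Those most like Il1rn were the myeloid kinase Fgr (0.91), Lair1 (0.89) and the β-glucan receptor Clec7a (0.89). Il18 was most like Stap1, Pip4k2a and Smpdl3b (0.87 each), and Il33 most like Tnfaip8l2 (0.88), the T cell adaptor Lcp2 (0.88) and the costimulatory ligand Icosl (0.87). The part of infiltrating cells in these levels was not tested.

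**Figure D4:**
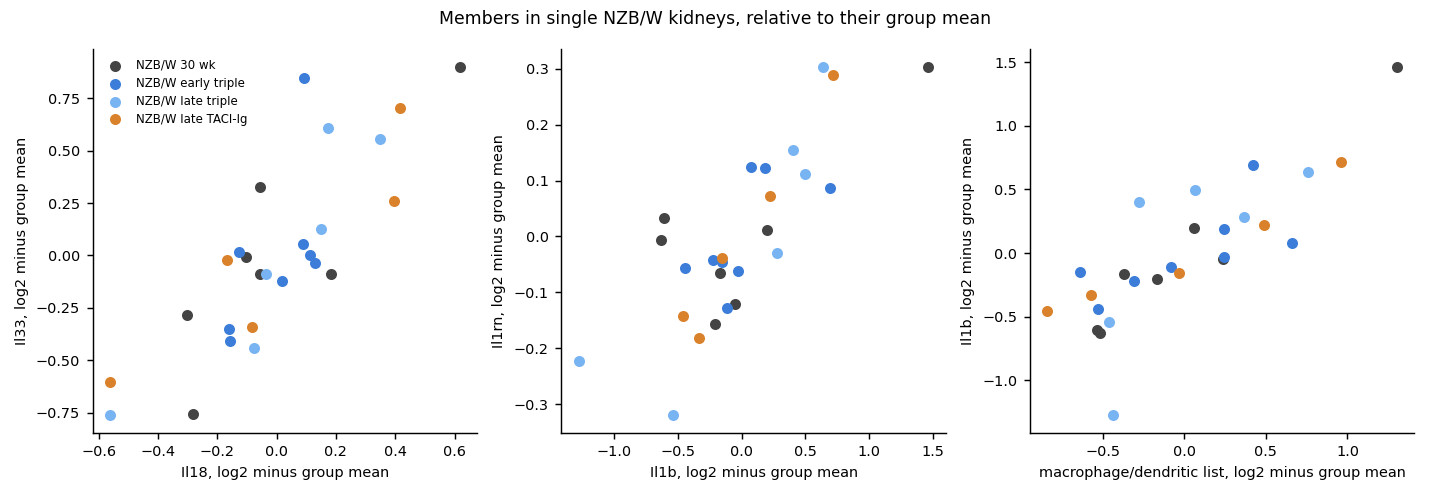
Log2 value minus group mean in 26 NZB/W kidneys (points, coloured by group) for Il33 against Il18 (left), Il1rn against Il1b (middle) and Il1b against the mean of the macrophage and dendritic cell markers (right). The r values are 0.82, 0.80 and 0.82, and the point farthest to the right in each panel is 30 wk replicate 2.

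The upstream sequences of these 4 genes are shown because the genes varied together. Each is the 250 bases before the RefSeq start site nearest the 5′ end of the gene (GRCm38.p6, read 5′ to 3′ on the strand of the gene), from chr2:129371140-129371389 (minus strand) for Il1b, chr2:24336610-24336859 (plus) for Il1rn, chr9:50554450-50554699 (plus) for Il18 and chr19:29924863-29925112 (plus) for Il33. Capitals mark the one match found.
Il1b: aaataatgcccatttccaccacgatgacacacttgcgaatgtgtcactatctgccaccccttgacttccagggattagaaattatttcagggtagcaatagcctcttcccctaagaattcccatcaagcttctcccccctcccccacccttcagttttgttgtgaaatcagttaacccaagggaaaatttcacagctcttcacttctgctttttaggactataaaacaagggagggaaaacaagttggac
Il1rn: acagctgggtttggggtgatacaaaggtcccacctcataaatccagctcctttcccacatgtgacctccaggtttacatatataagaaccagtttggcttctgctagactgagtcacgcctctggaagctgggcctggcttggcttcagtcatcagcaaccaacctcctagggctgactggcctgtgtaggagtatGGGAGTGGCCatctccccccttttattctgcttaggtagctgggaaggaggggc
Il18: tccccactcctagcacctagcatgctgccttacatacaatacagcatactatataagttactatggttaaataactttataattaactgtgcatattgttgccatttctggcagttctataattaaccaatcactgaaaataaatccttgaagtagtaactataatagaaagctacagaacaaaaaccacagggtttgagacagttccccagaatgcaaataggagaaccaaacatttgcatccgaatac
Il33: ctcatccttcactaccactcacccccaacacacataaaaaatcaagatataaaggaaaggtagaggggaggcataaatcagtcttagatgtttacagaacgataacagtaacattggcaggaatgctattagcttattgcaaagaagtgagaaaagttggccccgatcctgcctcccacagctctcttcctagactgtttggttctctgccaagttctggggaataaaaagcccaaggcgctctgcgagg
Both strands were searched for a κB motif (GGGNNNNNCC), a STAT motif (TTCNNNGAA) and a PU.1 core (GAGGAA), whose letters can overlap one another in a sequence. Il1rn held a κB match at positions -54 to -45 from its start site, as did 45.8% of all 32851 promoter windows of 250 bases. Neither a STAT match (7.02% of windows) nor a PU.1 match (23.3%) was in these 4 windows. Of the 8 family genes with an entry, Il1f9 and Il1r2 held a STAT match, and Il1f9 and Il1a a PU.1 match. Il1f6 had no entry.

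Il1f6 had its highest r outside these 4 genes. Its r was 0.30 with Il1b, 0.37 with Il18 and Il33 and 0.44 with Il1rn, and none passed the adjusted threshold. The groups differed in sign. Within the 30 wk group the r with these 4 genes ran from -0.57 (Il18) to -0.09 (Il1rn). It ran from 0.24 (Il33) to 0.77 (Il1rn) in early remission and from 0.35 (Il1b) to 0.73 (Il33) in late remission after triple therapy. Whether the pooled r values of Il1f6 differ from those among the 4 genes was not tested. The strongest partner of Il1f6 was Il1r2, with an r of 0.68 (rho 0.72, permutation p = 0.00096 and 0.00046, adjusted p = 0.00576 for r), 0.73 without the 2 farthest kidneys and 0.45 to 0.81 within groups. Il1r2 did not exceed the upper bound of the low-level class in any kidney. In 30 wk replicate 2, where Il1b was 8.47, Il1f6 was 6.18, the second lowest of its group. With the macrophage markers Il1f6 had an r of 0.52, and 0.69 without that kidney. In the NZM2410 kidneys its r was 0.98 with Il1rn and 0.91 with Il18 (exact permutation p = 0.00556 and 0.0417, adjusted p = 0.1 and 0.244 over 36 pairs), with rho of 0.83 and 0.54, and replicate 3 was the highest kidney for all 3 genes. Without the 2 kidneys farthest from the Il1f6 median these r were 0.64 and -0.18, so the value with Il18 rested on those kidneys. The genes most like Il1f6 in NZB/W kidneys were the exonuclease Exo1 (r = 0.76), the sodium channel subunit Scn2b (0.75) and Xk (0.75), all 3 in the low-level class. Il1a was most like Cd80 (0.79), Nsd2 and Themis (0.77 each), Il1r2 most like Nsd2 (0.85), Phf13 (0.84) and P2rx7 (0.82), and Il1f9 most like Impdh2-ps (0.84), Foxh1 (0.83) and Zc2hc1b (0.82). Il1r1 was most like Spink12 (0.77), Asap2 (0.76) and 1700003E16Rik (0.75), and it alone had its highest r with the mast cell and neutrophil markers (0.67 each). Most markers of both lists were in the low-level class.

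The study reported that Il1f6, measured by PCR, correlated positively with the tubular injury genes Lcn2 and Havcr1 in each of its strains. Its kidneys were taken before and after the onset of nephritis. Here the pairs were examined on arrays of 30 wk and remission kidneys, relative to group means. The r values below are thus not a repeat of the PCR result. Over the 26 NZB/W kidneys Il1f6 had an r of 0.47 with Lcn2 (rho 0.48, permutation p = 0.037 and 0.027, adjusted p = 0.128 for r over 18 pairs). It was 0.30 without the 2 kidneys farthest from the Il1f6 median and -0.35, 0.66 and 0.79 within the 30 wk, early remission and late triple therapy groups. With Havcr1, Il1f6 had an r of -0.23 (rho -0.32, permutation p = 0.34 and 0.129, adjusted p = 0.51 for r), which was -0.29 without those kidneys. The r with Lcn2 had the opposite sign within the 30 wk group, and that with Havcr1 was negative in each of these groups, from -0.67 to -0.10. None of the 18 pairs of family gene and injury gene passed. The r values nearest the threshold were those of Il1r2, Il33, Il1rn and Il1b with Lcn2, 0.51 to 0.56 with an adjusted p of 0.0514 each (permutation test). In the 6 NZM2410 kidneys the r of Il1f6 was 0.74 with Lcn2 and 0.82 with Havcr1 (exact permutation p = 0.0944 and 0.075, adjusted p = 0.225 each), with rho of 0.37 and 0.26. Replicate 3 had the highest value of all 3 genes in that group. Without the 2 kidneys farthest from the Il1f6 median the r turned to -0.18 and -0.62, so the positive values rested on those kidneys.

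The other genes of the pathway were counted in 4 lists. In the comparisons among NZB/W groups limma called none of them. Among the 2 largest differences within their own list in early remission against 30 wk were those of Cxcl1, a neutrophil chemokine (-0.40, adjusted p = 0.263), Nfkbiz, which encodes a nuclear IκB protein (-0.34, adjusted p = 0.531), Casp8 (-0.27, adjusted p = 0.255) and Myd88, the adaptor of IL-1 receptors (-0.22, adjusted p = 0.255). Il1rl2, the IL-36 receptor, had the largest difference of the other ligands and receptors and was higher (0.17, adjusted p = 0.502). At an unadjusted p under 0.05, 4 of 19 induced genes were lower and 1 higher in that comparison, beside 3.37% and 5.42% of all genes. Of 10 other ligands and receptors, 2 were higher and 0 lower. Of 12 signalling genes and of 11 inflammasome and processing genes, 1 each was lower and 0 higher. In late TACI-Ig against 30 wk kidneys, the genes of largest difference within their list included Lcn2 (1.19, SE 0.60, adjusted p = 0.270), Casp8 (-0.41, SE 0.093, adjusted p = 0.203) and Irak2 (-0.31, SE 0.11, adjusted p = 0.203). Of the 19 induced genes, 14 had a higher mean, where 58.7% of all genes did, and 2 were higher at an unadjusted p under 0.05, beside 10.7% of all genes.

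Between NZM2410 and late TACI-Ig kidneys, 22 of 52 measured genes of these lists were called (42.3%, beside 59.5% of all genes, 30.9% lower and 28.6% higher), and 12 of the 22 were in the low-level class. Of 11 measured inflammasome and processing genes, 5 were lower and 1 higher. Aim2, a sensor of cytosolic DNA, had means of 4.29 and 5.92 (difference -1.62, SE 0.11, limma adjusted p = 3.7e-07), and Nlrp3, the sensor that activates caspase-1, had means of 5.54 and 7.04 (-1.50, SE 0.12, adjusted p = 8.22e-07). Both Aim2 means, and the Nlrp3 mean in NZM2410 kidneys, were below the upper bound of the low-level class. The neutrophil proteases Ctsg (-0.53), Elane (-0.44) and Prtn3 (-0.21), which can cleave IL-1 family precursors, were also lower, and Casp8 was higher (0.52). Casp1 itself was among the 5 not called. Of 12 measured signalling genes, 4 were higher and 1 lower. The ubiquitin ligase Traf6 (0.65), its partners Tab2 (0.44) and Map3k7 (0.21), and Tollip (0.40), an adaptor of the receptor complex, were higher, and the inhibitory kinase Irak3 (-0.40) was lower. In late TACI-Ig kidneys the means of Traf6 (5.60) and Irak3 (5.13) were below that bound, as was that of Ctsg (5.90). The lower NZM2410 means of Irak3 and Ctsg were below it too. Of 10 measured other ligands and receptors, 4 were lower, namely Il1rapl2 (-0.82), the IL-18 receptor chain Il18rap (-0.78), the IL-36 cytokine Il1f8 (-0.52) and the IL-36 receptor Il1rl2 (-0.48). Il1rapl2 and Il18rap were below that bound in both groups, with late TACI-Ig means of 4.84 and 5.97. Sigirr, an inhibitory receptor, was higher (0.33). Of 19 induced genes, 5 were lower, namely Saa1 (-0.76), Ccl20 (-0.67), Cxcl2 (-0.67), Il6 (-0.39) and Cxcl5 (-0.33), and Zc3h12a, an RNase that degrades Il6 mRNA, was higher (0.29). All 6 called induced genes were in the low-level class. List medians were -0.29 for the other ligands and receptors, 0.03 for signalling, 0.00 for inflammasome and processing and -0.21 for induced genes, against 0.00 over all genes.

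**Figure D5:**
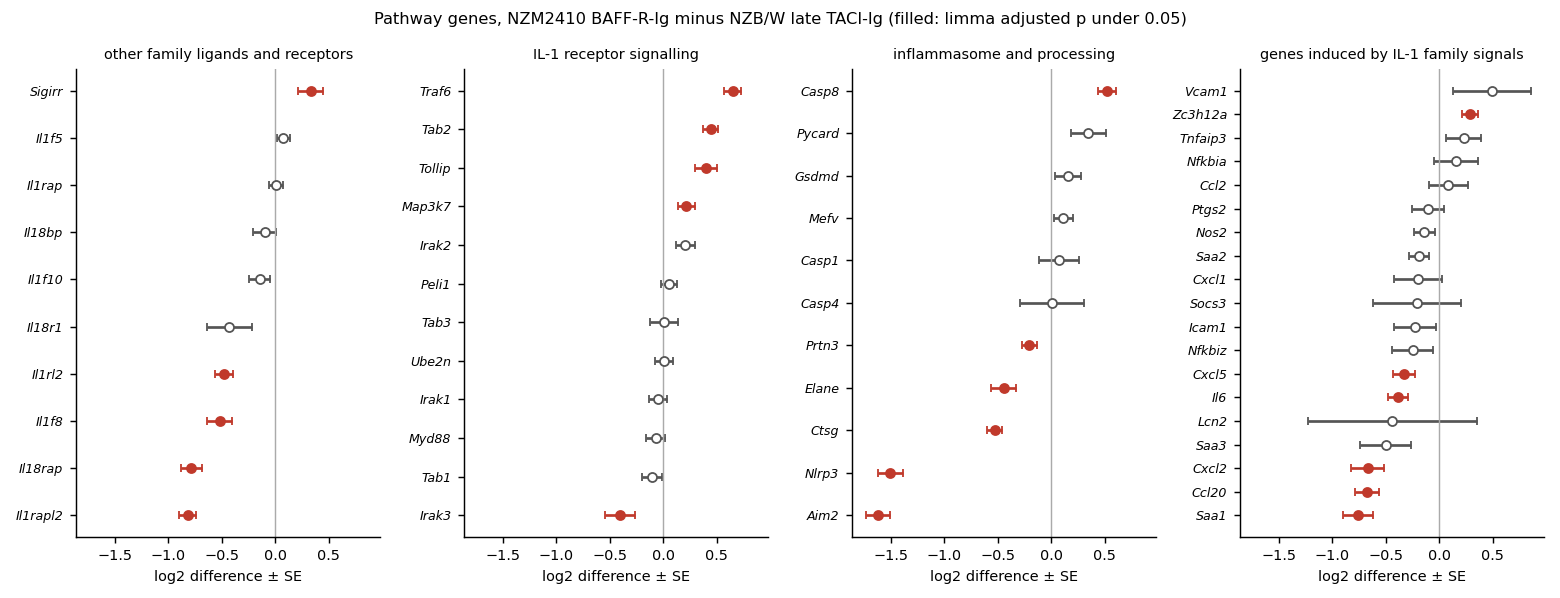
Log2 difference between NZM2410 and late TACI-Ig kidneys (horizontal axes, ± SE from limma) for the genes of 4 pathway lists (panels, 1 gene per row), filled red where the adjusted p was under 0.05. Aim2 (-1.62) and Nlrp3 (-1.50) lie farthest to the left, and Traf6 (0.65) is the called gene farthest to the right. Both means of Aim2, and the late TACI-Ig mean of Traf6, were below the upper bound of the low-level class.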

How the data were processed

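RNA of whole kidneys was hybridized to Affymetrix arrays, and samples were grouped by their labels. The authors deposited log2 values made with RMA, according to their processing notes, and their methods add that all arrays were normalized and corrected for batch in 1 run. Neither batches nor a software version or genome build are given in the sources used here. The values were used without further scaling. They cover 16539 probe sets, 1 per Entrez gene, of which 15780 with a single gene name entered the tests, while 64 array controls and 695 unnamed probe sets did not. No column of values was left out. The highest correlation between any pair of arrays was 0.9973, so none was treated as a repeat of another.

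Every comparison had its own fit in limma 3.58.1 (lmFit, eBayes; R 4.3.3), and p-values were adjusted over the 15780 genes by Benjamini-Hochberg, with calls at an adjusted p under 0.05. Correlations used 100000 permutations within groups (Python 3.11.15, numpy 2.4.6, scipy 1.17.1, pandas 2.3.3, matplotlib 3.10.9), 20000 in the alternatives, and all 720 orders of the 6 NZM2410 kidneys. The fit was tested on simulated data before use.

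The difference of a family gene was printed singly where its unadjusted p was under 0.05 or its size at least 0.3 (log2), and pathway genes were named where called or among the 2 largest of their list. A few of the latter appear only in the counts, and Casp1 was named after its values were seen. For each family gene the 3 genes of highest r were named. The family genes, lists and tests were chosen with earlier results of these data known. Only 37 olfactory receptor probe sets were named, fewer than the 50 set as the minimum for a level of unspecific signal, so detection was described by percentile. Il1rl1 is not analysed here. Upstream sequences are from RefSeq (GRCm38.p6).

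As alternatives, all groups were fitted jointly, quantile normalization was repeated, arrays were centred on their medians, low-level genes were dropped, arrays were weighted, the prior was made robust with a trend on intensity, a SAM-type test was run with 100 permutations, replicate numbers served as a block, 1 pair of kidneys sharing a mouse code was dropped, and single kidneys were dropped in turn. Scaling of all arrays to the same SD, and correlations in the NZM2410 kidneys alone, were added after seeing the data.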

Additional observations from a re-analysis of the deposited data

Results flagged for a closer look

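Over 45 sets of values, each 1 family gene in 1 group, 4 sets held a value that stood apart from the rest of its group by Dixon's test at the 95% level, which flags about 1 in 20 groups by chance. Il1b was 8.47 in 30 wk replicate 2, where the other 6 kidneys ran from 6.38 to 7.21, and Il1rn was 6.20 in the same kidney, where the others ran from 5.74 to 5.93. Il1b was 6.44 in NZM2410 replicate 2, below the other 5 kidneys at 6.88 to 7.05. Il33 was 7.96 in early remission replicate 2, above the other 7 at 6.70 to 7.16.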

How the results depend on the processing

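For 9 differences of single family genes and the 17 pairs of family genes that passed, 248 of their alternative values kept direction and side of the threshold, 37 fell below it, 3 rose past it and 1 reversed. The reversal was Il1a with Il1r1 in the 6 NZM2410 kidneys alone (r = -0.31, against 0.55 in NZB/W kidneys). In late TACI-Ig against 30 wk kidneys, the count of family genes called rose from 0 to 2 with the SAM-type test and ran from 0 to 1 over fits without 1 kidney. The inflammasome and processing list had 1 call with the SAM-type test, and the lists of inflammasome and processing, signalling and induced genes each ran from 0 to 1 without 1 kidney. All of these leave-one-out calls came without late TACI-Ig replicate 2. With array weights in early remission against 30 wk, the signalling, inflammasome and processing, and induced gene lists had 1 call each. For NZM2410 against late TACI-Ig, dropping low-level genes left 3 family genes called, 3 other ligands and receptors, 3 signalling genes and 0 induced genes, because dropped genes were not tested. Repeated quantile normalization gave 3 signalling genes and 2 induced genes, scaling to the same SD gave 3 signalling genes, and the SAM-type test gave 10 induced genes, and the cause was not tested. Of 36 pairs of family genes, 27 passed over all 32 kidneys, 9 after repeated quantile normalization, 15 without 30 wk replicate 2 and 0 in the NZM2410 kidneys alone. Of 18 pairs with Lcn2 or Havcr1, 6 passed over all 32 kidneys and 3 without the late triple therapy group. Counts of all genes called moved too. In early remission against 30 wk they were 0 with limma, 123 with array weights and 40 with the SAM-type test. In late TACI-Ig against 30 wk they were 0 with limma, 1057 with the SAM-type test and 1309 without late TACI-Ig replicate 2. In late against early remission they were 11 with limma, 65 with array weights, 32 with the SAM-type test and 0 after repeated quantile normalization, and ran from 0 to 32 without 1 kidney. Same-numbered kidneys mostly did not deviate together (r from -0.71 to 0.34), and the numbers were not taken to pair samples. In early remission against 30 wk, however, 3 of 7 such pairs had an r over 0.1. There, 2 of the 7 had their highest r with the kidney of their own number. With the replicate block, 1 induced gene was called in late against early remission, Il1r1 was no longer called in NZM2410 against late TACI-Ig kidneys (difference 0.25, limma adjusted p = 0.101), and no other family gene changed its call. Over fits without 1 kidney Il1r1 differed by 0.20 to 0.30 there and was called in 6 of 11, the exceptions being without late TACI-Ig replicate 2 or 3 or NZM2410 replicate 3, 5 or 6. Signals near those of the low-level class limit Il1f9, Il1rn and Il1r2. A detection level from olfactory receptor probe sets could not be run, with 37 named.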
